A study of Homo sapiens with 3 samples.

Results

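The 0.5–2 h window after ultraviolet (UV) irradiation of RKO cells was examined by comparing the library made 2 h after UV with the library made 0.5 h after UV. RKO is a poorly differentiated colon carcinoma cell line. The nuclear RNA was profiled by 3ʹREADS, a method that sequences the 3ʹ ends of polyadenylated transcripts. Each time point was represented by 1 library, and the 3 libraries in the table were unirradiated cells (0 h), cells left to recover for 0.5 h after UV and cells left to recover for 2 h after UV, with no other agent or genetic change named for any of them. Reads were summed over the poly(A) sites (pAs) of each gene, and genes with at least 10 reads over the 2 libraries compared were kept. Of 9431 genes, 5222 met this rule. They held 98.4% of the reads of both libraries, whereas 4209 genes fell below it, 526 of them with 0 reads in the window.

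UV light forms bulky lesions between neighboring pyrimidines of DNA, and these lesions stall RNA polymerase II on the transcribed strand. Long genes therefore present more obstacles to the polymerase than short genes, and transcription recovers as nucleotide excision repair removes the lesions. p53, the damage-activated transcription factor, and the immediate early transcription factors induce many of the genes known for responding in the first hours. A human gene can end its transcripts at more than 1 pA. A pA in the 3ʹ-most exon closes a full-length transcript, whereas a pA within an intron, or in an upstream exon, closes a truncated one. U1 snRNP, which recognizes 5ʹ splice sites, is also known to protect introns from premature cleavage and polyadenylation.

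The libraries held 501838 reads at 0.5 h and 438040 reads at 2 h, beside 433261 at 0 h, so that 1 read was worth 1.99, 2.28 and 2.31 RPM, respectively (RPM being the reads of a site scaled to the total of its library). The table listed 31565 pAs, of which 18415 lay in 3ʹ-most exons, 11989 in introns and 1161 in upstream exons. Of 18 epithelial and colon markers, 5 had listed pAs: KRT8 with 4, 4 and 26 reads at 0, 0.5 and 2 h, KRT18 with 2, 3 and 4, EPCAM with 7, 6 and 0, CA2 with 0, 0 and 1, and CDX1 with 1, 0 and 0. CDX2, VIL1, MUC2, KRT20 and LGR5, which define colon epithelium, were not among them, so the tissue of origin rested on the label. Of the fibroblast markers 1 of 12 was listed (ACTA2, with 0, 0 and 4 reads) and of the endothelial markers 0 of 7. The only listed immune marker of 13 was CD68, a lysosomal protein, with 2037, 2589 and 1965 reads.

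Each gene was compared by a two-sided Fisher's exact test of its reads against all other reads of the 2 libraries, with Benjamini-Hochberg adjustment over all genes tested. A gene was called up or down at an adjusted p under 0.05 with an RPM ratio beyond 2-fold, and "rose", "fell", "up" and "down" are used for genes called in this way. With 1 library per time point, the test compares the 2 libraries and not the conditions, the spread between cultures is unknown, and the 95% intervals cover counting error only. RPM values are shares of a library, so fewer cells with a transcript, less of it per cell and more of the remaining RNA cannot be told apart. The 0 h values are given beside the others for orientation and entered no test.

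In total, 481 of the 5222 genes were upregulated (9.21% of the genes tested) and 484 were downregulated (9.27%), whereas 4257 were not called. The median log2 ratio of 2 h to 0.5 h, with 2 RPM added to each value, was −0.01, with quartiles of −0.69 and 0.65. The directions were thus balanced, with 49.8% of the called genes up. Of the genes tested, 46 had 0 reads at 0.5 h and 41 had 0 at 2 h, and these passed the minimum of reads through 1 library alone. An unadjusted p under 0.05 was reached by 1915 genes, and a 2-fold difference was passed by 918 genes upward and 921 downward.

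The share of called genes depended on abundance. It was 15.9% of the 1564 genes with 10 to 19 reads, 26.1% of the 779 genes with 50 to 99 reads and 7.55% of the 265 genes with 500 reads or more. The quartiles of the log2 ratio narrowed from −0.85 and 0.96 in the group of fewest reads to −0.39 and 0.37 in the group of most reads. Among the most abundant genes the libraries were therefore close to each other. The 10 genes with the most reads held 19% of the reads at 0.5 h and 19.8% at 2 h, and 0 of them were called, with ratios from 0.738 for GRAMD1A to 1.89 for HSF1. HSF1, the master regulator of the heat shock response, had 5869, 6155 and 10152 reads at 0, 0.5 and 2 h.

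**Figure D1:**
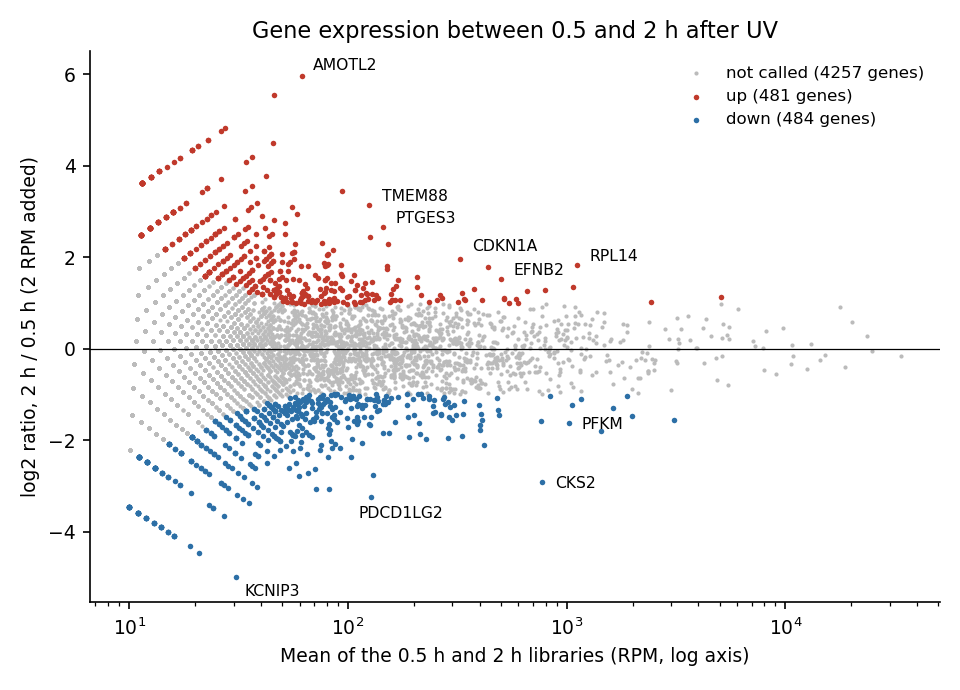
Each point is 1 of the 5222 genes, with the mean of the 0.5 h and 2 h libraries in RPM on a log axis (x) and the log2 ratio of 2 h to 0.5 h with 2 RPM added (y). Red points are the 481 genes called up, blue points the 484 called down and gray points the 4257 not called; called genes lie on both sides of 0 and are fewest at the right, where 7.55% of the genes with 500 reads or more were called.

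The balance between rises and falls differed by pA type. For 3ʹ-most exon pA isoforms, 282 of 4323 genes rose (6.52%) and 542 fell (12.5%), with a median log2 ratio of −0.17. For intronic pA isoforms, 267 of 925 genes rose (28.9%) and 50 fell (5.41%), with a median log2 ratio of 0.59. Of the genes tested in introns, 73 had 0 intronic reads at 0.5 h and 10 had 0 at 2 h. At the 3ʹ-most exon these numbers were 18 and 59. Such genes passed the minimum of reads through 1 library alone, so that the counts by pA type depend in part on that minimum. The difference between the 2 pA types was not itself tested. In 416 genes with enough reads of both types, the medians were −0.28 for the 3ʹ-most exon and 0.73 for introns. Of these genes, 171 had a lower 3ʹ-most exon value with a higher intronic value, and 38 had the reverse. Both values were higher in 122 genes and lower in 85. Whether the 171 genes exceed what the 2 separate shifts would give was not tested.

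The summed reads showed the same split. The share of reads at intronic pAs was 6% in the 0.5 h library (95% Clopper-Pearson interval 5.94 to 6.07%) and 8.46% in the 2 h library (8.38 to 8.55%), against 6.86% before UV. In RPM, the ratio of 2 h to 0.5 h was 1.41 (1.39 to 1.43) for intronic reads, 1.5 (1.38 to 1.62) for reads at upstream-exon pAs and 0.972 (0.968 to 0.976) for reads at 3ʹ-most exon pAs. Without the 10 most abundant pAs of each type the intronic ratio was 1.6 and that of upstream exons 1.73. Over 0, 0.5 and 2 h, the number of intronic pAs with any read went from 3825 to 3945 and 7399, whereas that of 3ʹ-most exon pAs went from 12705 to 11256 and 10599. Thus, the intronic reads of the 2 h library were spread over more sites, although this library had fewer reads than that of 0.5 h.

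Distance from the gene end separated the intronic pAs further, as far as they were placed in a distance group. From nearest to farthest, the 4 groups held 485, 2367, 4127 and 2793 of the 11989 intronic pAs. The remaining intronic pAs were in no group, and no ratio was computed for them. Intronic pAs less than 2 kb upstream of the main 3ʹ-most exon pA of their gene had an RPM ratio of 1.12 (1.08 to 1.15). The ratio was 1.42 (1.37 to 1.47) for pAs 2 to 10 kb upstream and 1.64 (1.59 to 1.69) for pAs 10 to 50 kb upstream. For pAs more than 50 kb upstream it was 2.16 (2.07 to 2.26), from 2953 to 5580 reads, beside 2109 reads at 0 h. The intervals of the 4 distance groups, which cover counting error only, did not overlap. In the nearest group, however, 1 pA of NAP1L1 held 6165 of the 8518 reads at 0.5 h and 5862 of the 8301 at 2 h. Without the 10 most abundant pAs of each group the ratios kept this order, at 1.4, 1.61, 1.93 and 2.26. The nearest group then held 734 and 896 reads, and no intervals were computed for these ratios. Over the same groups the number of pAs with reads went from 189 to 275, from 804 to 1437, from 1298 to 2627 and from 849 to 1796.

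**Figure D2:**
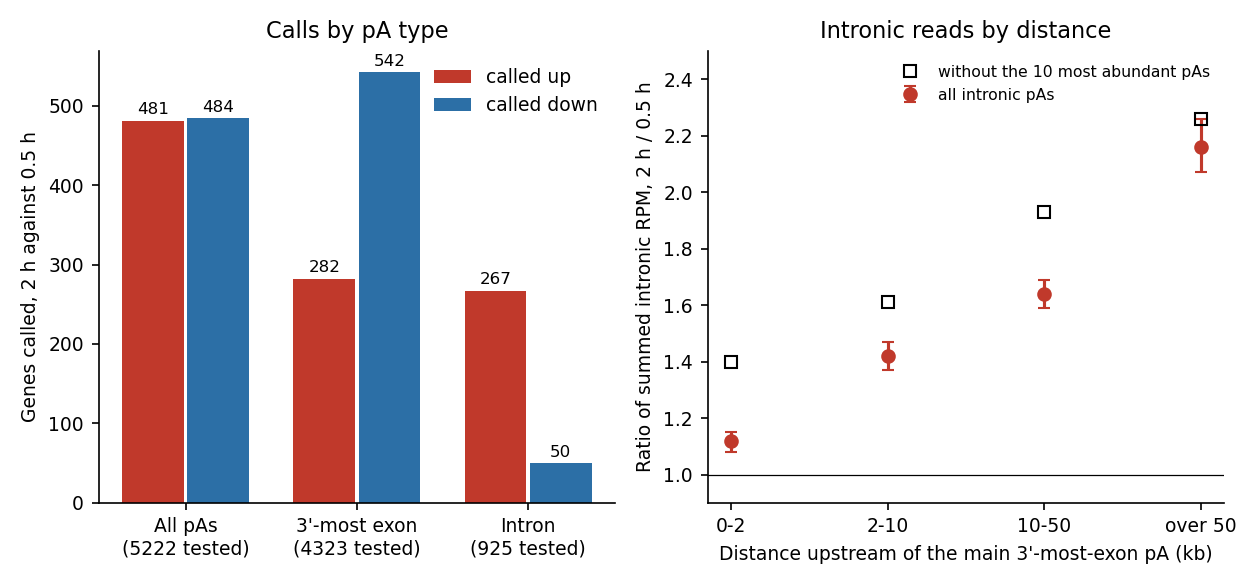
Left, bars give the number of genes called up (red) and down (blue) between 0.5 h and 2 h for all pAs (481 and 484), 3ʹ-most exon pAs (282 and 542) and intronic pAs (267 and 50). Right, points give the ratio of summed intronic RPM, 2 h over 0.5 h, with 95% counting intervals as bars, against distance upstream of the main 3ʹ-most exon pA in kb; the ratio goes from 1.12 to 2.16, and open squares leave out the 10 most abundant pAs of each group. Intronic pAs outside the distance groups are not shown.

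A rise of a gene was not always a rise of its full-length transcript. Of the 481 upregulated genes, 260 were also up at 3ʹ-most exon pAs, 78 were not called there, 2 were down there and 141 had too few reads there to be tested. In 163 of them (33.9%), intronic pAs carried more than 50% of the net change. Summed over the 481 genes, the net change of 36789 RPM was made of 27231 RPM at 3ʹ-most exon pAs, 9311 RPM at intronic pAs (25.3%) and 248 RPM at upstream-exon pAs. Falls were mostly falls of the 3ʹ-most exon isoform, whose pAs held 93.8% of all reads at 0.5 h, against 6% at intronic pAs. Of the 484 downregulated genes 424 were down there and 0 were up, and of the net change of −47669 RPM only −1573 RPM (3.3%) was at intronic pAs. A further 116 genes whose summed reads were not called were down at 3ʹ-most exon pAs.

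Among genes called up with at least 50 reads at 2 h and 10 at 0.5 h, the 10 largest of 92 rises ranged from 3.87-fold to 9.45-fold. TMEM88, a membrane protein that inhibits Wnt signaling, led them with 1, 12 and 99 reads at 0, 0.5 and 2 h, all at 1 pA in its 3ʹ-most exon (chromosome 17, position 7759417, plus strand, hg19). Its ratio was 9.45 (5.18 to 18.9, Fisher's exact adjusted p = 3.42e-19). PTGES3, the HSP90 co-chaperone p23, had 17, 19 and 110 reads and a ratio of 6.63 (4.05 to 11.4, Fisher's exact adjusted p = 8.28e-18). Its rise was intronic, since its 3ʹ-most exon had 10, 17 and 13 reads. DUSP14, a dual-specificity phosphatase, behaved in the same manner, with 12, 19 and 94 reads in all but 12, 15 and 11 in its 3ʹ-most exon.

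Most others of the 10 rose at the 3ʹ-most exon. ARPC1A, a subunit of the actin-nucleating Arp2/3 complex, had 50, 25 and 111 reads, a ratio of 5.09 (3.27 to 8.2). HEXIM1, which together with 7SK RNA inhibits the elongation kinase P-TEFb, had 19, 15 and 62 reads, a ratio of 4.74 (2.66 to 8.96, Fisher's exact adjusted p = 4.06e-08). C22orf29 had 33, 15 and 58 reads, with a ratio of 4.43. ZNF385A, a zinc finger protein that binds p53, had 24, 15 and 57 reads, with a ratio of 4.35. FDPS, the farnesyl diphosphate synthase of the cholesterol pathway, had 30, 16 and 54 reads, with a ratio of 3.87 (2.18 to 7.24). In these 5 genes the 0.5 h library was the lowest of the 3 and the 2 h library the highest. Ranking genes by the ratio of 2 h to 0.5 h favors this order. MTRNR2L10 had 5, 12 and 56 reads, but its sequence is nearly identical to mitochondrial rRNA, and its count is uncertain.

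CDKN1A, which encodes the cyclin-dependent kinase inhibitor p21 and is a well-known p53 target, combined an intronic rise with no call at the gene end. All its pAs together had 53, 66 and 227 reads at 0, 0.5 and 2 h, a ratio of 3.94 (2.98 to 5.26, Fisher's exact adjusted p = 5.08e-25). Its intronic pAs had 6, 5 and 149 reads, a ratio of 34.1 (14.3 to 107), whereas its 3ʹ-most exon had 47, 61 and 78 reads and was not called (Fisher's exact adjusted p = 0.0783). Of the intronic reads at 2 h, 128 were at 1 pA at position 36648636 of chromosome 6 (plus strand, hg19), 6.47 kb upstream of the main 3ʹ-most exon pA at position 36655109. The share of intronic reads in its intronic and 3ʹ-most exon reads went from 7.58% to 65.6%.

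**Figure D3:**
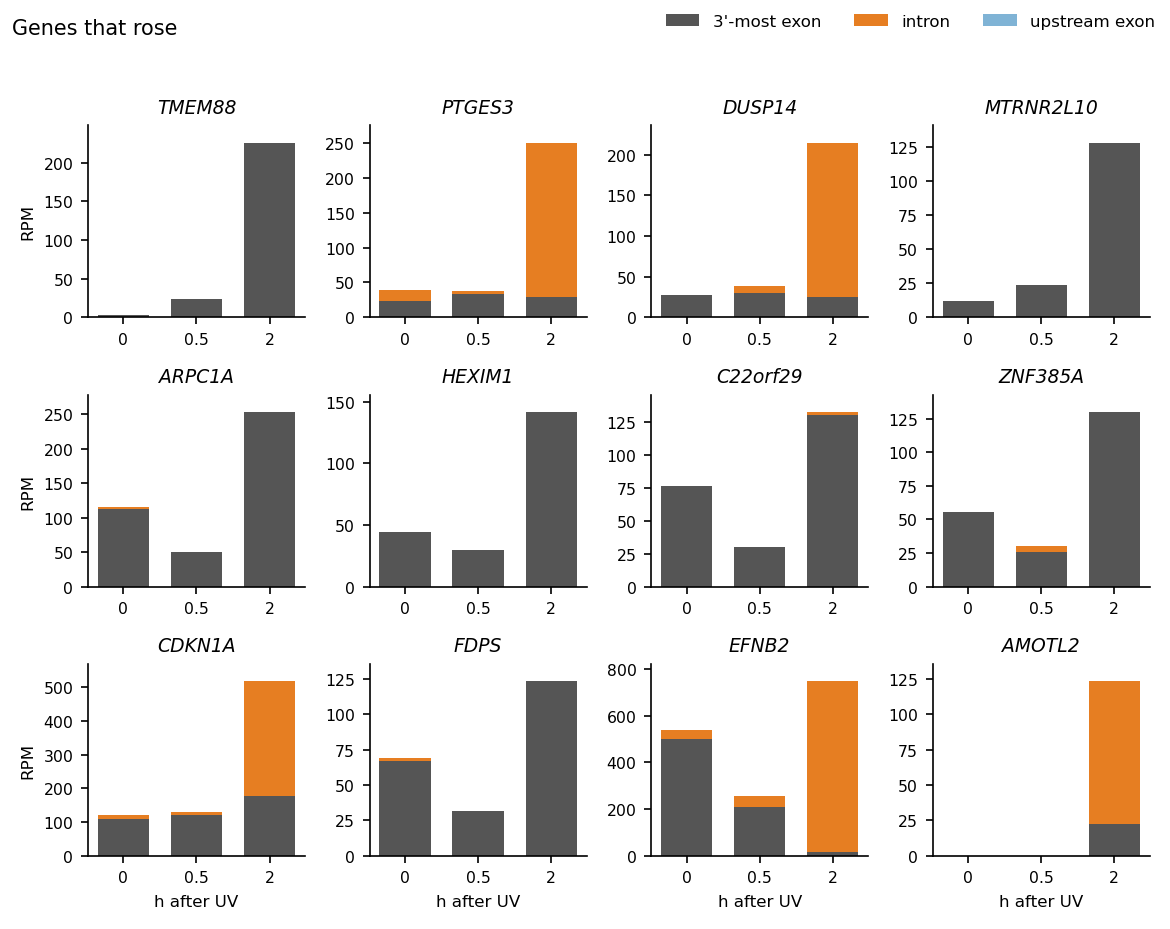
Bars give RPM (y, separate scale in each panel) at 0, 0.5 and 2 h after UV for the 10 genes with the largest rises and for EFNB2 and AMOTL2, divided into 3ʹ-most exon (gray), intronic (orange) and upstream-exon (blue) pAs. The 2 h bar is the highest in every panel; in PTGES3, DUSP14, CDKN1A, EFNB2 and AMOTL2 most of it is intronic, whereas in TMEM88, HEXIM1 and FDPS it lies in the 3ʹ-most exon.

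EFNB2, the ephrin-B2 ligand of Eph receptors, had the largest intronic ratio among the 12 genes called up with enough reads to be ranked. Its intronic pAs had 18, 25 and 320 reads at 0, 0.5 and 2 h, a ratio of 14.7 (9.75 to 23, Fisher's exact adjusted p = 9.81e-73). At the same time its 3ʹ-most exon went from 216 to 104 and 7 reads, 13-fold lower in the window (6.06 to 33, Fisher's exact adjusted p = 7.53e-19). The gene as a whole rose 2.9-fold, from 129 to 327 reads, of which 7 were at the full-length end. At 2 h, 244 of the intronic reads were at position 107180737 of chromosome 13 (minus strand, hg19), 38.2 kb upstream of the main 3ʹ-most exon pA, and the remainder was spread over other pAs, 22 with reads in all against 7 at 0.5 h.

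Opposite calls of this kind were made in 14 genes, EFNB2 included, whose 3ʹ-most exon fell while introns rose. Beside them, 44 genes fell at the 3ʹ-most exon with no call in introns and 3 fell in both. A further 481 genes that fell at the 3ʹ-most exon had too few intronic reads to be tested. SLC2A1, the glucose transporter GLUT1, was among the 14, with 30, 38 and 9 reads at the 3ʹ-most exon and 9, 3 and 35 in introns. Its summed reads (39, 41 and 44) were not called. WLS, which carries Wnt proteins to the cell surface, had 7, 10 and 0 reads at the 3ʹ-most exon and 41, 36 and 103 in introns. DDB2, the lesion-recognition protein of nucleotide excision repair, fell from 31 to 11 reads at the 3ʹ-most exon (8 at 0 h) and rose from 6 to 16 in introns (4 at 0 h). Of the genes up at the 3ʹ-most exon and tested in introns, 13 were also up in introns, 13 were not called and 0 were down. Intronic rises were thus called beside both directions of the 3ʹ-most exon. Among genes tested for both, they took a smaller share of those that fell there than of those that rose there. Their share beside falls was also below the 28.9% of all genes tested in introns. These shares were not compared by a test.

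Other intronic rises came without a call at the 3ʹ-most exon, as in 113 genes, or in genes with too few reads there to be tested. ZYX, the focal adhesion protein zyxin, had 8, 10 and 56 intronic reads, a ratio of 6.42 (3.24 to 14.1), beside 232, 238 and 220 reads in its 3ʹ-most exon. PIGT, a subunit of the GPI transamidase, had 116, 78 and 154 intronic reads, a ratio of 2.26, beside 834, 1167 and 763 in its 3ʹ-most exon, 1.34-fold lower in the window and thus not past 2-fold. BANP, a nuclear matrix-associated DNA-binding protein, had 7, 0 and 0 reads in its 3ʹ-most exon. Its intronic reads were nearly all at a single pA 125 kb upstream (position 87986354 of chromosome 16, plus strand, hg19), with 22, 95 and 295 reads. Its intronic ratio was 3.47 (2.75 to 4.41, Fisher's exact adjusted p = 2.79e-28). This pA was already higher at 0.5 h than at 0 h.

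The intronic reads of genes with an intronic rise often lay at several sites at 2 h. Over these 267 genes, the median number of intronic pAs with reads was 1 at 0.5 h and 4 at 2 h, with a maximum of 22. The genes were selected for more intronic reads at 2 h, so that more sites with reads are in part given by the selection. The numbers of sites were not compared at equal reads. A median of 63.6% of the intronic reads at 2 h came from the leading pA. In 82 genes this share was above 80%, and in 39 genes a single intronic pA had reads. For PTGES3 the leading pA was at position 57080142 of chromosome 12 (minus strand, hg19), 23 kb upstream, with 7, 2 and 92 reads. For DUSP14 it was at position 35853650 of chromosome 17 (plus strand, hg19), 19.9 kb upstream, with 0, 4 and 76 reads.

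A change in the balance of pA types was counted separately, by a Fisher's exact test of intronic against 3ʹ-most exon reads within each gene, called at an unadjusted p under 0.05 with a change of more than 5 percentage points. The intronic share rose in 492 of 2765 genes (17.8%) and fell in 61 (2.21%). Among the 492 genes, 39 were upregulated (7.93%) and 45 downregulated (9.15%) in summed reads, with a median log2 ratio of −0.10. Among the 2212 genes with no call of this kind, 215 were upregulated (9.72%) and 162 downregulated (7.32%). Most genes with a higher intronic share were thus not called for summed reads, which was also true of all genes tested (4257 of 5222).

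For the 46 genes with 0 reads at 0.5 h, the fold given is the lower limit of its counting interval. AMOTL2, an angiomotin family protein of cell junctions and the Hippo pathway, had 0, 0 and 54 reads at 0, 0.5 and 2 h. These reads were at least 16.2-fold higher at 2 h (Fisher's exact adjusted p = 8.78e-17). Of these reads, 43 were at an intronic pA at position 134088509 of chromosome 3 (minus strand, hg19), 13.8 kb upstream, and 10 were in the 3ʹ-most exon. CREB5, a bZIP transcription factor, had 4, 0 and 40 reads, at least 11.9-fold higher. All 40 were intronic, the leading pA lying 411 kb upstream (position 28450377 of chromosome 7, plus strand, hg19). CLTA, a clathrin light chain, had 5, 0 and 24 reads, at least 6.9-fold higher. FBXO18, an F-box DNA helicase, had 0, 0 and 23 reads, and ABL1, the tyrosine kinase, had 1, 0 and 20.

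Some genes well covered at the 3ʹ-most exon had intronic reads at 2 h only. COTL1, an actin-binding protein, had 0, 0 and 35 intronic reads, at least 10.3-fold higher, with 61, 64 and 30 reads in its 3ʹ-most exon. FOSL1, a subunit of AP-1, had 0, 0 and 27, at least 7.83-fold higher, with 43, 37 and 29 reads in its 3ʹ-most exon. PTRF, a coat protein of caveolae, had 0, 0 and 26, at least 7.52-fold higher. Over all 925 genes tested for intronic reads, 73 had 0 of them at 0.5 h and 10 had 0 at 2 h.

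In the opposite direction, the 10 largest of 153 ranked falls ranged from 4.43-fold to 10.1-fold, and in each of them the 2 h library was the lowest of the 3. The ranking by the same ratio favors a low value at 2 h. PDCD1LG2, the immune checkpoint ligand PD-L2, had 74, 116 and 10 reads at 0, 0.5 and 2 h, 10.1-fold lower at 2 h (5.32 to 21.7, Fisher's exact adjusted p = 3.12e-19). CKS2, a small regulatory subunit of cyclin-dependent kinases, had 1056, 686 and 79 reads, 7.58-fold lower (5.99 to 9.71, Fisher's exact adjusted p = 8.81e-102). CKS2 was the most abundant of the 10. At 2 h, 71 of its reads were at its leading 3ʹ-most exon pA at position 91931618 of chromosome 9 (plus strand, hg19), which had held all of them at 0.5 h.

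LRRC8A, the obligatory subunit of the volume-regulated anion channel, had 114, 115 and 14 reads, 7.17-fold lower (4.1 to 13.5). ITGA5, the α5 chain of the fibronectin receptor, had 33, 70 and 13 reads, 4.7-fold lower. HOXA10, a homeobox transcription factor, had 33, 62 and 12 reads, 4.51-fold lower. ITGA5 and HOXA10 were thus higher at 0.5 h than at 0 h before they fell. DDX31, an RNA helicase of ribosome assembly, had 67, 62 and 11 reads, 4.92-fold lower. LAS1L, which takes part in the processing of pre-rRNA, had 116, 71 and 14 reads, 4.43-fold lower. C2orf42, with 111, 87 and 14 reads, and ITM2C, with 45, 76 and 14, were also among the 10.

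The largest falls at the 3ʹ-most exon included genes with and without many intronic reads. TNFRSF1A, the main receptor for tumor necrosis factor, had 85, 127 and 11 reads in its 3ʹ-most exon, 10.1-fold lower (5.43 to 20.7, Fisher's exact adjusted p = 3.26e-21), beside 92, 118 and 68 intronic reads, which were not called because their fall was 1.51-fold. RGMB, a co-receptor for bone morphogenetic proteins, had 159, 142 and 16 reads in its 3ʹ-most exon, 7.75-fold lower (4.61 to 13.9), beside 79, 87 and 57 in introns. SPSB1, a substrate adaptor of a ubiquitin ligase, had 64, 79 and 11 reads in its 3ʹ-most exon, 6.27-fold lower, beside 0, 5 and 7 in introns. CBFA2T2, a transcriptional corepressor, had 168, 94 and 14, 5.86-fold lower, beside 7, 0 and 5 in introns.

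**Figure D4:**
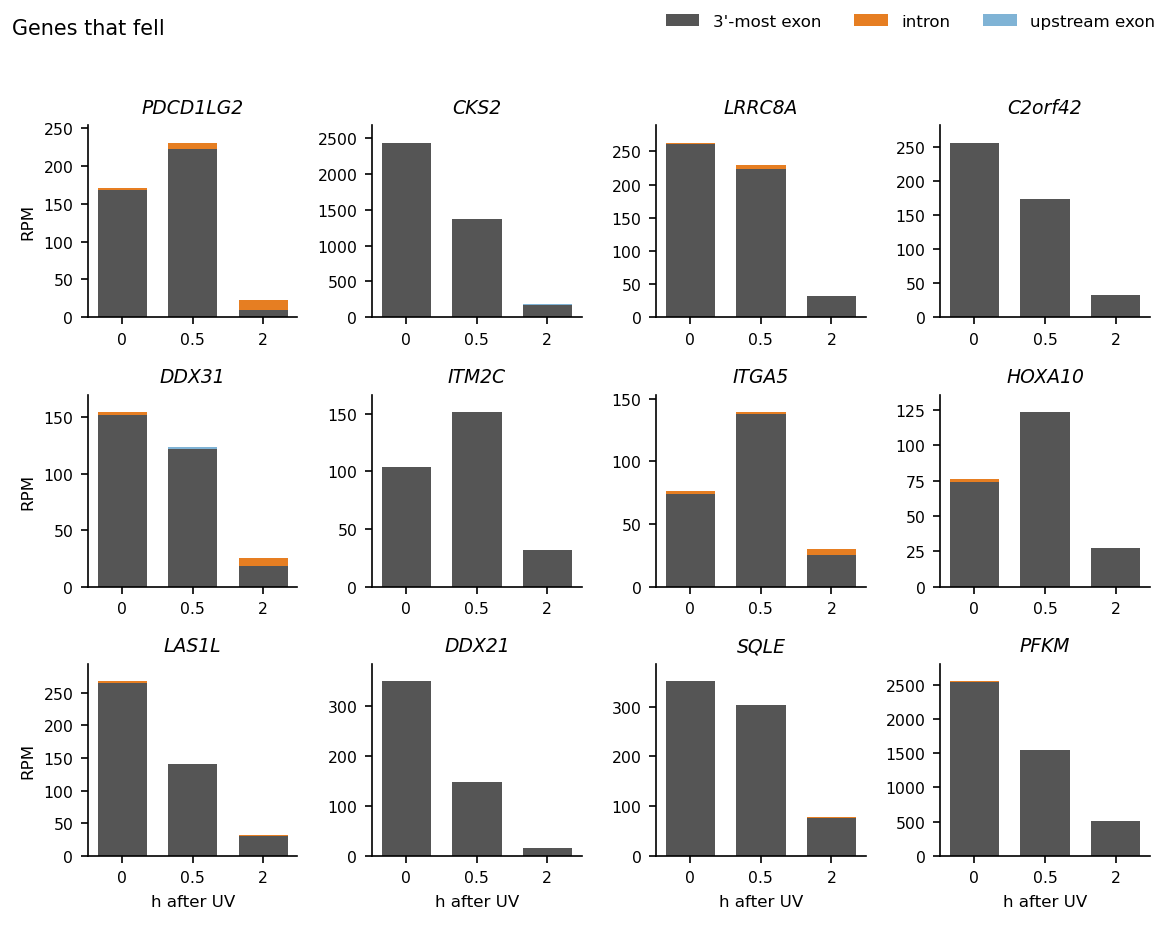
Bars give RPM (y, separate scale in each panel) at 0, 0.5 and 2 h after UV for 9 of the 10 genes with the largest falls and for DDX21, SQLE and PFKM, divided into 3ʹ-most exon (gray), intronic (orange) and upstream-exon (blue) pAs. The 2 h bar is the lowest in every panel, from 10.1-fold below 0.5 h in PDCD1LG2 to 3.08-fold in PFKM, and nearly all of the lost signal lies in the 3ʹ-most exon.

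Genes with reads at 0.5 h and 0 at 2 h numbered 41, and their folds are also lower limits of the counting interval. KCNIP3, a calcium-binding protein that also represses transcription, had 14, 31 and 0 reads, at least 6.9-fold lower. PTPN4, a tyrosine phosphatase, had 5, 21 and 0, at least 4.55-fold lower, and CCDC174 had 25, 19 and 0, at least 4.08-fold lower. MARC2, a mitochondrial reductase, had 6, 16 and 0 and TRAK2, an adaptor for mitochondrial transport, 4, 16 and 0. Falls of intronic reads were few, and the 5 that could be ranked were between 2.03-fold and 2.94-fold. TMEM67, a protein of the primary cilium, had 62, 74 and 22 intronic reads, and TTC17 had 131, 188 and 81. SYS1, a Golgi trafficking protein, had 80, 85 and 31, CNIH4, an ER export receptor, 70, 63 and 26, and PQLC2, a lysosomal amino acid transporter, 81, 59 and 25.

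Functional groups were described by counts of called members and by medians, to be read against 9.21% up, 9.27% down and a median of −0.01 over all genes tested. Counts at the 3ʹ-most exon are to be read against 6.52% up and 12.5% down, and counts in introns against 28.9% up and 5.41% down, since all genes showed this split by pA type. The members were listed from general knowledge, and no test of a list was made. Of 20 p53 target genes tested, 5 rose (25%) and 0 fell, with a median of 0.27, and 15 of the 20 were higher at 2 h. In addition to CDKN1A, these were POLH, the lesion-bypass polymerase eta, with 2, 3 and 31 reads, a ratio of 11.8 (3.69 to 60.5, Fisher's exact adjusted p = 1.53e-06), of which 23 reads at 2 h were intronic. BTG2, an antiproliferative gene, had 2, 7 and 39 reads, a ratio of 6.38 (2.82 to 16.9), all in its 3ʹ-most exon. PMAIP1, which encodes the pro-apoptotic NOXA, had 1, 3 and 19 reads, and TNFRSF10B, the death receptor DR5, had 17, 15 and 33, with 21 of the 33 intronic. By pA type, 4 of 6 p53 targets rose in introns (28.9% over all genes), and at the 3ʹ-most exon 2 of 17 rose (11.8%, against 6.52%) and 1 fell (5.88%, against 12.5%).

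Of 21 immediate early genes, which are known to be induced without new protein synthesis, 5 rose (23.8%) and 2 fell (9.52%), with a median of 0.77. EGR3, a zinc finger factor, had 4, 5 and 44 reads, a ratio of 10.1 (4.01 to 32.6, Fisher's exact adjusted p = 9.20e-09). JUNB, a subunit of AP-1, had 3, 5 and 36 reads, a ratio of 8.25 (3.23 to 26.9). FOS had 0, 0 and 11 reads, all intronic, and FOSB had 8, 12 and 27. BTG2, also on this list, was the other riser. KLF2, a Krüppel-like factor, went the other way with 22, 36 and 8 reads, 3.93-fold lower (1.8 to 9.8), and MYC with 11, 10 and 0 reads. Of 9 dual-specificity phosphatases, which inactivate MAP kinases among other substrates, 3 rose (DUSP14, DUSP28 and DUSP5) and 1 fell (DUSP6, with 78, 51 and 14 reads), with a median of −0.17.

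Of 16 NF-κB pathway genes and targets, 2 rose (12.5%) and 1 fell (6.25%). NFKBIZ, a nuclear IκB protein, had 1, 2 and 35 reads, a ratio of 20 (5.15 to 172, Fisher's exact adjusted p = 1.82e-08), with 30 of the 35 intronic. RELA, the p65 subunit, had 12, 10 and 29 reads, of which 12, 8 and 23 were in the 3ʹ-most exon. TRAF2, a signaling adaptor, had 74, 61 and 21 reads, 2.54-fold lower.

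The repair and replication lists had medians near 0. Of 24 nucleotide excision repair genes 1 rose (XPA, from 1 read to 9) and 1 fell (GTF2H3, a TFIIH subunit, from 24 reads to 6), with a median of 0.05. Of 25 genes of damage signaling and double-strand break repair, 4 rose (16%) and 1 fell (4%). WEE1, the kinase that inhibits mitotic entry, had 1, 3 and 19 reads, all of the 2 h reads intronic. PARP1, a sensor of DNA breaks, rose with 23, 6 and 23 reads, and NBN, of the MRN complex, fell with 15, 24 and 4. Of 29 DNA replication genes 2 rose and 2 fell, among the latter MCM10 with 67, 64 and 20 reads.

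Of 27 genes of mitosis and the cell cycle, 3 rose (11.1%) and 5 fell (18.5%), and at the 3ʹ-most exon 1 of 25 rose (4%, against 6.52% over all genes) and 6 fell (24%, against 12.5%). The fallers beside CKS2 were MYBL2, a cell cycle transcription factor, with 8, 39 and 6 reads, NUF2, a kinetochore protein, with 38, 53 and 12, KIF11, the spindle motor, with 41, 36 and 10, and SPC25, of the same complex as NUF2, with 43 reads at 0.5 h and 15 at 2 h. CCND2, cyclin D2, was the most abundant riser with 258, 199 and 350 reads, a ratio of 2.01 (1.69 to 2.41). Of 8 genes of the E2F and RB pathway 2 rose. E2F1 itself was not called in summed reads (18, 33 and 48) but rose in introns, with 1, 2 and 30 reads, a ratio of 17.2 (4.36 to 148), beside 17, 31 and 18 in its 3ʹ-most exon.

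Among genes of the transcription machinery tested in introns, 1 of 1 RNA polymerase II subunits and 2 of 5 elongation factor genes rose there. Of general transcription factor and Mediator genes, 1 of 4 did. Over all genes tested in introns 28.9% rose, and so few genes cannot show a difference from that share. Of 7 RNA polymerase II subunits 1 rose, POLR2A, the catalytic subunit, with 21, 14 and 30 reads, of which 0, 7 and 29 were intronic and 21, 7 and 1 in the 3ʹ-most exon. Of 17 elongation factor genes 3 rose (17.6%) and 0 fell, and at the 3ʹ-most exon 1 of 13 rose (7.69%, against 6.52% over all genes) and 2 fell (15.4%, against 12.5%). The risers were HEXIM1, TCEB3, the elongin A gene, with 0, 0 and 18 reads, all intronic, and CDC73, of the PAF1 complex, from 1 read to 9. CCNT1, the cyclin of P-TEFb, fell at the 3ʹ-most exon, with 22, 24 and 5 reads. Of 19 general transcription factor and Mediator genes 0 rose and 2 fell (10.5%), TAF12 with 27, 30 and 3 reads and MED27 with 46, 78 and 28.

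Among RNA processing genes, 4 of 31 snRNP and U2-associated protein genes rose (12.9%) and 1 fell (3.23%), with a median of 0.01. U2AF1, which recognizes the 3ʹ splice site, had 32, 34 and 102 reads, a ratio of 3.44 (2.31 to 5.23, Fisher's exact adjusted p = 7.61e-10), whereas its partner U2AF2 fell with 18, 34 and 11 reads. SNRPA, a protein of U1 snRNP, had 61, 23 and 49 reads, a ratio of 2.44. SNRNP70, another protein of U1 snRNP, had 56, 93 and 130 reads and was not called because its ratio was 1.6. Of 14 SR protein and SR kinase genes 1 rose and 0 fell, SRSF5 with 16, 2 and 22 reads, a ratio of 12.6 (3.1 to 111). Of 21 hnRNP genes 4 rose (19%) and 1 fell (4.76%), with a median of 0.51. PTBP1, a splicing repressor, rose with 14, 17 and 47 reads, and HNRNPU, the nuclear scaffold protein, fell with 296, 279 and 104, 2.34-fold lower (1.86 to 2.96).

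Of 14 genes of the cleavage and polyadenylation machinery, 1 rose (CPSF4, from 1 read to 9) and 1 fell (CSTF1, with 21, 28 and 8 reads), with a median of 0.07. At the 3ʹ-most exon 0 of 9 rose and 2 fell (22.2%, against 12.5% over all genes), CSTF1 and WDR33, the latter a protein that binds the polyadenylation signal, with 41, 44 and 15 reads. The 11 genes that the study itself took up for alternative polyadenylation or as parts of U1 snRNP were in part selected on these libraries, and their values are no independent evidence. Of these 4 rose (CDKN1A, EFNB2, POLR2A and SNRPA) and 3 fell (DUSP6, NOTCH1 and KDELR1). At the 3ʹ-most exon 4 of 10 fell (12.5% over all genes) and 1 rose, and in introns 4 of 5 rose (28.9% over all genes) and 0 fell.

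Cholesterol synthesis and uptake moved in both directions, with 3 of 21 genes up and 3 down and a median of −0.06. SQLE, squalene epoxidase, fell and had 152, 152 and 34 reads, 3.9-fold lower (2.67 to 5.85, Fisher's exact adjusted p = 5.57e-14). The risers were FDPS, SCAP, the escort protein of the SREBP factors, with 40, 38 and 68 reads, and FADS2, from 1 read to 9.

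Of 16 glycolysis genes 2 rose and 1 fell. The faller, the muscle-type phosphofructokinase gene PFKM, had 1104, 779 and 221 reads, 3.08-fold lower (2.65 to 3.58, Fisher's exact adjusted p = 1.05e-55). Of 17 ATF4 targets and amino acid synthesis genes 1 rose (ATF5) and 1 fell (JDP2), and of 20 aminoacyl-tRNA synthetase genes 0 were called, the most abundant being AARS with 1354, 1944 and 1708 reads. Of 24 redox genes 1 rose, PRDX2, a peroxiredoxin, with 36, 17 and 55 reads. QSOX1, a sulfhydryl oxidase, fell with 129, 99 and 33 reads, and TXNDC5, a protein disulfide isomerase, with 15, 28 and 4.

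Of 34 heat shock protein and chaperone genes 4 rose and 4 fell (11.8% each), and at the 3ʹ-most exon 0 of 28 rose and 3 fell (10.7%, near the 12.5% of all genes). HSPA5, the ER chaperone BiP, had 206, 208 and 75 reads, 2.42-fold lower (1.85 to 3.19). SERPINH1, the collagen chaperone HSP47, had 125, 223 and 66 reads, 2.95-fold lower (2.23 to 3.94). HSPA13, another chaperone of the endoplasmic reticulum (ER), fell with 73, 59 and 21 reads, and CCT8, a subunit of the cytosolic chaperonin, with 2, 16 and 3. BAG3, a co-chaperone of HSP70, rose with 4, 0 and 12 reads, all intronic, and DNAJB6 rose from 4 reads to 20.

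The lists of cell surface genes had medians below that of all genes. Of 19 integrin, matrix and adhesion genes 1 rose (5.26%) and 3 fell (15.8%), with a median of −0.53, and at the 3ʹ-most exon 5 of 18 fell (27.8%, against 12.5% over all genes). LAMA5, a laminin chain, had 279, 215 and 66 reads, 2.84-fold lower (2.15 to 3.8). CD44, the hyaluronan receptor, had 78, 131 and 48 reads, 2.38-fold lower. ITGB1, the β1 integrin chain, fell at the 3ʹ-most exon with 339, 286 and 109 reads, 2.29-fold lower (1.83 to 2.88), and rose in introns with 4, 4 and 16. TIMP2, an inhibitor of metalloproteinases, was the riser, with 3, 3 and 13 reads.

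Of 26 growth factor receptor and Eph system genes 4 rose (15.4%) and 5 fell (19.2%), with a split by pA type in the direction seen over all genes. At the 3ʹ-most exon 0 of 22 rose (6.52% over all genes) and 7 fell (31.8%, against 12.5%), with a median of −0.63 against −0.17, and in introns 5 of 7 rose (28.9% over all genes) and 0 fell. ACVR2A, an activin receptor, fell with 64, 36 and 6 reads. TGFBR1, a TGF-β receptor, fell with 81, 87 and 35 reads, and NOTCH1 with 128, 71 and 29. EPHA2, an Eph receptor, rose with 10, 7 and 25 reads, and 19 of its reads at 2 h were intronic. DLL1, a Notch ligand, rose from 1 read to 10, all intronic.

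Of 111 solute carrier genes 8 rose (7.21%) and 18 fell (16.2%), with a median of −0.31. At the 3ʹ-most exon 4 of 98 rose (4.08%, against 6.52% over all genes) and 21 fell (21.4%, against 12.5%). SLC5A6, a vitamin transporter, had 228, 263 and 61 reads, 3.76-fold lower (2.84 to 5.05, Fisher's exact adjusted p = 2.06e-23). SLC7A1, a transporter of cationic amino acids, had 287, 359 and 114 reads, 2.75-fold lower (2.22 to 3.42). SLC35E1 had 175, 196 and 62 reads, and SLC20A1, a phosphate transporter, 23, 33 and 5. In introns, 10 of 27 solute carrier genes rose (37%, against 28.9% over all genes) and 1 fell (3.7%, against 5.41%). Of 43 nuclear pore and transport receptor genes 4 rose and 5 fell, with a median of −0.34. IPO13, an import and export receptor, rose with 40, 47 and 96 reads, of which 84 at 2 h were intronic. XPO5, the exporter of microRNA precursors, fell with 24, 49 and 17 reads.

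Cytoskeletal genes were called in 1 direction. Of 32 actin, tubulin, keratin and lamin system genes 9 rose (28.1%) and 0 fell, with a median of 0.45, and 24 of the 32 were higher at 2 h. At the 3ʹ-most exon 4 of 26 rose (15.4%, against 6.52% over all genes) and 0 fell (12.5% over all genes), and in introns 7 of 12 rose (58.3%, against 28.9%) and 0 fell. CFL1, the actin-severing protein cofilin, had 26, 1 and 29 reads, a ratio of 33.2 that its single read at 0.5 h left imprecise (5.51 to 1357, Fisher's exact adjusted p = 1.12e-07), and was close to its 0 h value at 2 h. MYL12B, a myosin light chain, had 102, 31 and 67 reads, and TUBA1B, an α-tubulin with near-identical paralogs, 29, 37 and 75. KRT8, a keratin of simple epithelia, had 4, 4 and 26 reads, all intronic, and TPM4, a tropomyosin, had 6, 6 and 26, with 20 of the 26 intronic.

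Of 51 cytosolic ribosomal protein genes 4 rose (7.84%) and 1 fell (1.96%), with a median of 0.17. RPL14 had 176, 244 and 758 reads, a ratio of 3.56 (3.08 to 4.13, Fisher's exact adjusted p = 1.58e-75). RPS6 went the other way with 328, 306 and 91 reads, 2.94-fold lower (2.31 to 3.75, Fisher's exact adjusted p = 1.66e-20). These genes have many processed pseudogenes of near-identical sequence, and their counts are uncertain where reads could be split. Of 44 mitochondrial ribosomal protein genes 3 rose and 5 fell, with MRPL35 rising (100, 100 and 204 reads) and MRPL18 falling (70, 63 and 16). Of 52 respiratory chain and ATP synthase genes 4 rose and 2 fell, among them NDUFA4L2 upward with 3, 6 and 34 reads and NDUFA6 downward with 256, 67 and 22.

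Of 31 translation initiation factor genes 2 rose and 1 fell, of 30 proteasome genes 1 rose and 2 fell, with medians of 0.28 and 0.08. PSMD2, a subunit of the regulatory particle of the proteasome, fell and had 921, 791 and 323 reads, 2.14-fold lower (1.88 to 2.44). Of 25 DEAD and DEAH box helicase genes 5 rose (20%) and 3 fell (12%), with a median of 0.39. DDX21, an RNA helicase of ribosomal RNA synthesis and processing, had 151, 74 and 7 reads, 9.23-fold lower (4.26 to 23.8, Fisher's exact adjusted p = 9.44e-12), whereas DHX30 rose with 77, 77 and 138. Of 38 chromatin genes 3 rose and 4 fell, with falls of SMARCB1, a core SWI/SNF subunit, with 42, 41 and 7 reads, and of SUZ12, a Polycomb protein, with 27, 25 and 3.

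**Figure D5:**
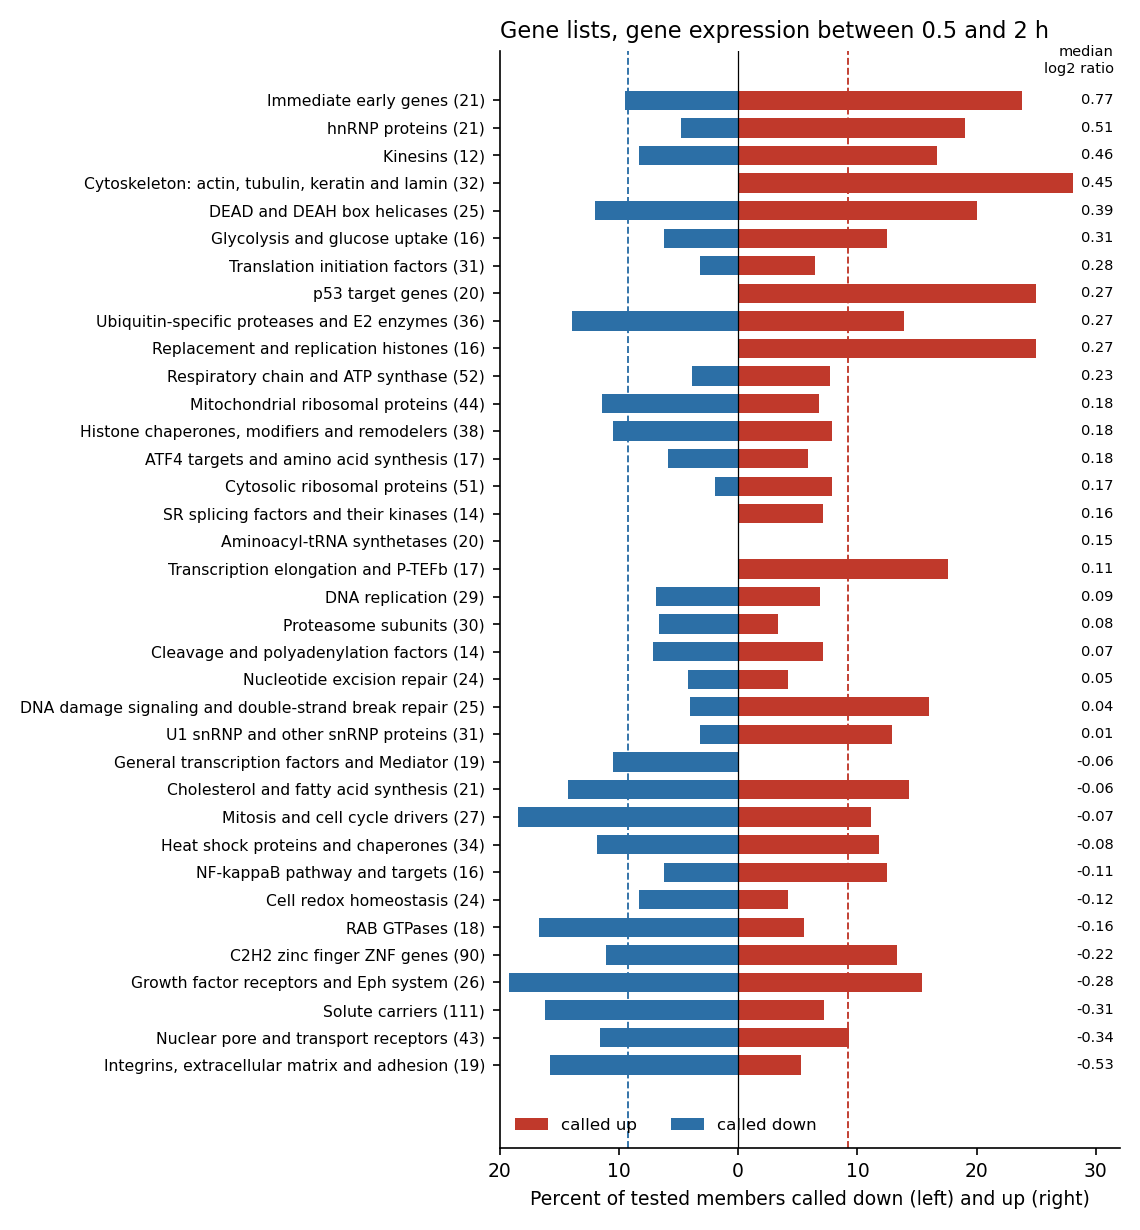
Bars give the percent of tested members called down (left, blue) and up (right, red) in summed reads for each functional gene list with at least 10 members tested (number tested in brackets; cell type markers and the genes taken up by the study are left out), and the column at the right gives the median log2 ratio with 2 RPM added. Dashed lines mark all genes tested (9.27% down and 9.21% up); of the lists plotted, cytoskeletal genes, p53 targets, histones and immediate early genes reach furthest to the right (28.1%, 25%, 25% and 23.8%), and the solute carriers show 16.2% down against 7.21% up.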

How the data were processed

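The deposited table listed pAs with their gene, type, hg19 position and RPM in 3 nuclear RNA libraries. Per the labels and the study's methods, the authors made 3ʹREADS libraries, aligned reads to hg19 with Bowtie2 after CASAVA, required 2 or more non-genomic As in a read, and expressed each pA in RPM. Dividing the deposited RPM by the smallest nonzero value of its column gave whole reads for 100% of values (tolerance 1e-06). Reads were summed per gene and pA type. Two-sided Fisher's exact tests with Benjamini-Hochberg adjustment compared 2 h with 0.5 h in genes with at least 10 reads of that type. Tests ran in scipy 1.17.1 under Python 3.11.15 with pandas 2.3.3 for tables, numpy 2.4.6 for arithmetic and matplotlib 3.10.9 for plots, and the scripts were tested on simulated data.

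Genes were named by rule: the 10 largest rises and falls among called genes (minimum 50 reads in one library, 10 in the other), the 5 with most reads against 0, the 10 most abundant, up to 6 called per list and test (of 45 lists), or the 2 most abundant where none was called, and genes the study took up. FOSB and SPC25 fell outside the rule and were named after their values were seen, and some genes that the rule picked are not reported here. The members and lists were chosen with earlier results of these data known. Positions were the files' own, and 58 pAs listed under more than 1 gene were counted for each. No sequence is printed, as no hg19 genome was used here.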

Additional observations from a re-analysis of the deposited data

How the results depend on the processing

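Other scalings, 2 read minimums, thinning of the 0.5 h library, unadjusted p, no fold threshold, a filter on single-read pAs and exclusion of shared pAs were tried. Scaling shifted all genes by −0.00, 0.04 and 0.01 log2. With no minimum of reads 27 genes fell in introns, against 50, and with at least 20 reads 130 rose and 27 fell, against 267 and 50. With no fold threshold 727 genes fell in summed reads, against 484, and 490 rose at the 3ʹ-most exon, against 282. With adjusted p-values the intronic share rose in 211 genes and fell in 13, against 492 and 61. Without the 10 most abundant pAs of each type the RPM ratios were 0.958 (3ʹ-most exon), 1.6 (introns) and 1.73 (upstream exons), and with pAs of at least 2 reads the intronic ratio was 1.35. The cause of these shifts was not tested. A named gene that was no longer tested under a setting was not counted there. With at least 20 reads 375 values of named genes were counted, against 490 with unadjusted p. The genes with the fewest reads thus left that check. Of 4738 values of named genes under these settings, 4601 kept their direction and their side of the thresholds. A further 109 lost the call, 28 gained one and 0 reversed. Unadjusted p and no fold threshold can only add calls, and a scaling shift of at most 0.04 log2 cannot reverse a gene called past 2-fold. Under those settings such outcomes were therefore fixed in advance. XPA, CPSF4 and DDB2 (3ʹ-most exon) lost their calls with no minimum of reads and after thinning, and DHX30 after thinning. Of 979 list medians, 195 moved, and only that of SR genes at the 3ʹ-most exon, at −0.00, changed sign with scaling (−0.01 to 0.04). Setting genes at 0 to 3 reads moved intronic medians by up to 1.69.

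No paired analysis was possible because each time point had 1 library, and leaving out a replicate was not possible either. Genes near the minimum of 10 reads can be called only at large folds, so that smaller differences were not detectable at this depth, and differences between cultures cannot be separated from differences between time points.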

Other observations

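A few further gene families were called in the same window and are given as values. Of 32 histone genes with listed pAs 16 had enough reads to be tested, and of these 4 rose (25%) and 0 fell, with a median log2 ratio of 0.27. HIST1H3B, a replication-dependent H3 gene, had 0, 2 and 20 reads at 0, 0.5 and 2 h, HIST1H3A 1, 2 and 15, HIST3H2BB 0, 0 and 10, and H3F3B, a gene for the replacement histone H3.3, 5, 3 and 21. Replication-dependent histone mRNAs normally lack a poly(A) tail, and several of these genes have near-identical copies, so their counts are uncertain. Of 12 kinesin genes 2 rose and 1 fell, the former KIF1C with 2, 8 and 29 reads and KIF14 with 16, 1 and 13.

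Of 36 ubiquitin-specific protease and E2 enzyme genes 5 rose and 5 fell (13.9% each). UBE2G1, an E2 enzyme, had 9, 18 and 1 reads and UBE2Q1 had 17, 4 and 24, all in their 3ʹ-most exons, whereas USP34, a deubiquitinase, had 5, 6 and 28, of which 26 at 2 h were intronic. Of 18 RAB GTPase genes 1 rose, RAB7A of late endosomes, with 70, 66 and 132 reads, and 3 fell, among them RAB40C with 33, 33 and 7 and RAB10 with 62, 67 and 27. Of 90 C2H2 zinc finger genes named ZNF 12 rose (13.3%) and 10 fell (11.1%), whereas at the 3ʹ-most exon 5 of 71 rose (7.04%, against 6.52% over all genes) and 13 fell (18.3%, against 12.5%), with a median of −0.47 against −0.17 over all genes tested. Of 30 long nuclear noncoding RNAs and snoRNA host genes 0 had listed pAs, so their expression could not be assessed.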
